A study of Mus musculus with 10 samples.

Results

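Molecular chaperones bind unfolded or partly folded proteins and keep them from aggregating, and many of them are named heat shock proteins because their genes are induced when a cell is heated. In the cytosol the induction runs through heat shock factor 1 (Hsf1), which binds arrays of inverted nGAAn units, the heat shock elements, in the promoters of its targets. The endoplasmic reticulum (ER) and the mitochondrion have chaperones of their own, and ER chaperone genes answer to unfolded protein in the ER through a separate element, the ER stress response element. ES cells are known for high levels of several chaperones in the absence of stress.

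The 10 genes described here were taken from a list of chaperone genes, as 10 of the 30677 genes in the deposited count table. They are Hspa1a and Hspa1b (the stress-induced HSP70 proteins), Hspb1 (the small heat shock protein Hsp25), Dnajb1 (an HSP40 cochaperone of HSP70), Hsph1 (an HSP110 nucleotide exchange factor), Hsp90aa1 (the inducible cytosolic HSP90), Hspa8 (the constitutive cytosolic HSP70, Hsc70), Hspd1 (mitochondrial HSP60), Hspa5 (the ER HSP70, BiP) and Serpinh1 (Hsp47, the collagen chaperone of the ER). All 10 passed the filter on low counts, as did 20027 genes in all. The first 6 are called inducible here and the other 4 constitutive, from textbook knowledge. These labels were not tested, and a constitutive label does not exclude induction by heat. They do not follow the promoter motifs described below, where Hspd1 held a heat shock element and Dnajb1 had no match.

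The cells were TNGA, a mouse embryonic stem (ES) cell line in which a GFP reporter occupies one Nanog allele, so that every library came from cells heterozygous for Nanog. They were grown in serum and LIF and treated for 48 hours, either with 100 μM MB-3, a small-molecule inhibitor of the histone acetyltransferase Kat2a (Gcn5), or with DMSO, its solvent. Both groups contained DMSO at a final 0.1%. Each group had 3 polyA RNA-seq libraries, lettered A, B and C, and totals of 48144367, 51137896 and 46863700 counts in DMSO A, B and C and of 49334434, 44985772 and 42270312 in MB-3 A, B and C. The cells were not heated, so the comparison asked how chaperone transcripts differed between MB-3 and DMSO in unheated ES cells. Stress was not measured, and inhibition of Kat2a was not separated from other effects of the compound. The label of ES cells matched the markers. Pou5f1, the core pluripotency factor, stood at 650.4 to 713.2 CPM (counts per 1000000 of the normalized library size) in DMSO and at 652.2 to 716.7 CPM in MB-3, and Nanog at 256.2 to 274.1 CPM in DMSO and 242.5 to 256.9 CPM in MB-3.

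The sequences upstream of 4 members are shown because 3 of them hold heat shock element units and Serpinh1, the member with the largest fitted change, holds none that were searched for. Each is the 150 bases before the RefSeq transcription start (GRCm38.p6), written 5′ to 3′ along the gene, with capitals marking the 2-unit motif GAANNTTC. The stretches lie at chr17:34972157-34972306 (minus strand) for Hspa1a, chr17:34959239-34959388 (minus strand) for Hspa1b, chr5:135887769-135887918 (plus strand) for Hspb1 and chr7:99353240-99353389 (minus strand) for Serpinh1.
Hspa1a: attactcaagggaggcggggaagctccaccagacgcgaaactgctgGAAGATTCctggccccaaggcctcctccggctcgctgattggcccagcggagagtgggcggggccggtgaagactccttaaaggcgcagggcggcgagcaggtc
Hspa1b: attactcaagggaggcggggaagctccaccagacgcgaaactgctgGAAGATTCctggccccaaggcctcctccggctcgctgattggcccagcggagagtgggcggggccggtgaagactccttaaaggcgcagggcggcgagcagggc
Hspb1: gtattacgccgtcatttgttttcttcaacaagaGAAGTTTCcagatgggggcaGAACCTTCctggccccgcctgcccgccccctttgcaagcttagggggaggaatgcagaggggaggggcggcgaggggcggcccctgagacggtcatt
Serpinh1: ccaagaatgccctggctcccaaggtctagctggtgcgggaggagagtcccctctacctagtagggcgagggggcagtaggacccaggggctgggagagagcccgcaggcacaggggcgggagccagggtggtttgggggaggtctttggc

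The Hspa1a and Hspa1b stretches were identical at 149 of 150 bases, and their coding sequences at 1889 bases (98.1%). Motifs were searched on both strands of promoters reaching from 250 bases before to 50 bases after the start. GAANNTTC occurred in 7.86% of the 32851 mouse promoters in the RefSeq table, the tail-to-tail form TTCNNGAA in 8.52%, and the 3-unit element, which is GAA, TTC and GAA with 2 bases between neighbouring units and so contains both, in 0.603%. Hspa1a and Hspa1b each had the match GAAGATTC with its first base at -104 from the start, and Hspb1 had matches at -117 and -97. Hsph1 held a 3-unit element just after its starts, at 37 or 16 bases, depending on which of 2 starts is used. Dnajb1 and Serpinh1 had no match in their windows, and Hsp90aa1 and Hspa8 were not in the table. A match describes these letters only.

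Hspd1 and its cochaperonin Hspe1 are transcribed away from each other. RefSeq lists 2 promoters for Hspd1, and the heat shock element was found only from the start at chr1:55087932. The 30 bases that hold it lie between that start and the RefSeq start of Hspe1, at chr1:55088053-55088082 (GRCm38.p6, shown on the minus strand). Hspa5 carried the ER stress response element, CCAAT and CCACG with 9 bases between them, found in 0.119% of promoters, at chr2:34772020-34772049 (plus strand). Capitals mark the elements, and the 3-unit heat shock element of Hspd1 occurs there in overlapping copies at -144 and -139.
Hspd1: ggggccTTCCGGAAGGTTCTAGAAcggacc
Hspa5: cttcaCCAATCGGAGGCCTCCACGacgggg

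Scaled by exon length, the levels of the members in DMSO spanned from 0.542 CPM per kb for Hspa1a to 1772 CPM per kb for Hsp90aa1. Hspd1 followed Hsp90aa1 at 380 CPM per kb, then Hspa5 at 79.9, Hspa8 at 38.2, Hspb1 at 30.1, Hsph1 at 22.7, Serpinh1 at 21.5 and Dnajb1 at 16.6. Hspa1b, at 0.880 CPM per kb, and Hspa1a came last, so that the HSP70 genes that respond to heat were the lowest members in these unheated cells. Averaged over all 6 libraries of both groups, Hsp90aa1 and Hspd1 stood at the 99.8th and 98.9th percentile of the tested genes on this scale, and Hspa1a at the 19.7th. Serpinh1 varied among DMSO libraries with a coefficient of variation of 41.2%, and its range overlapped those of Hspb1, Hsph1 and Dnajb1 on this scale, so its place among them is not set beyond the spread.

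**Figure D1:**
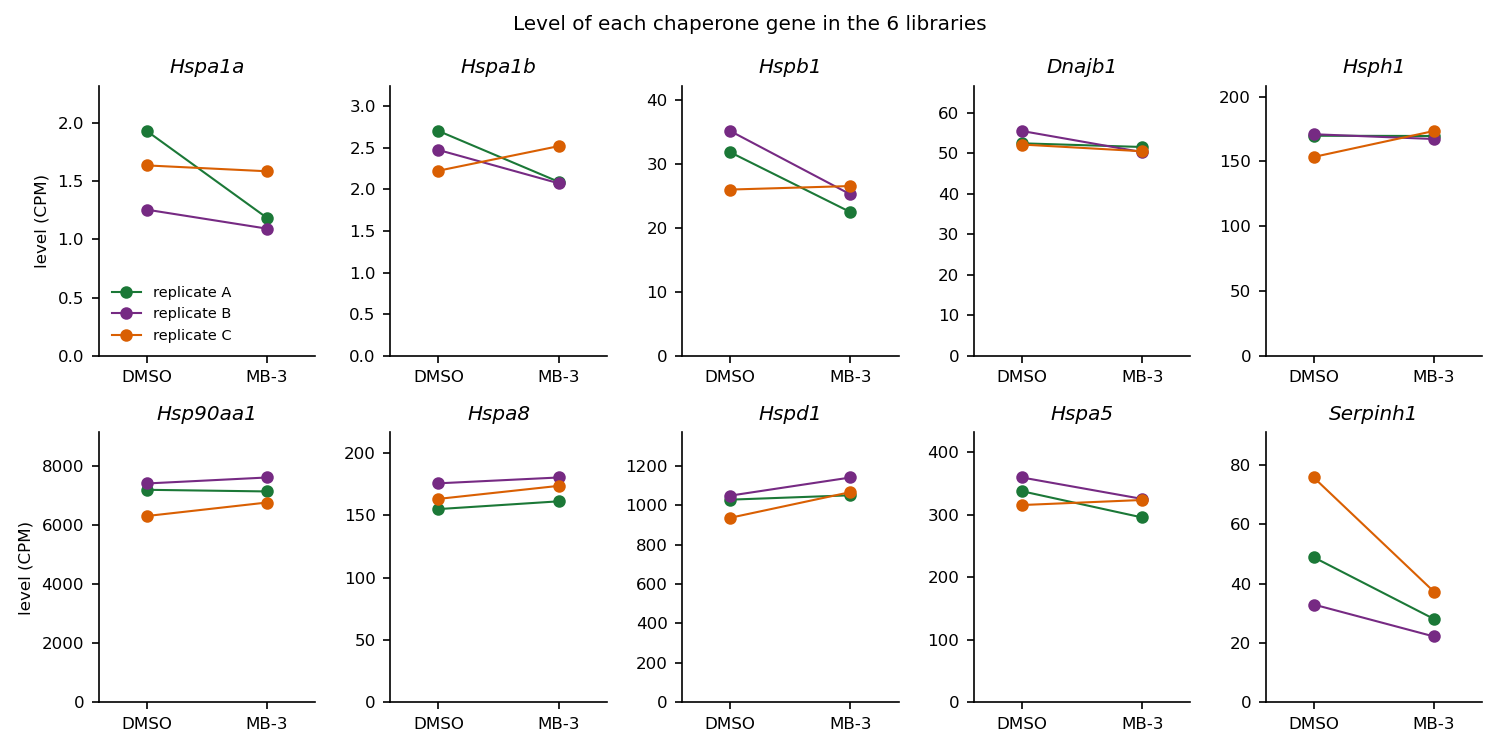
Level of each of the 10 chaperone genes in CPM (vertical axis, starting at 0 in each panel) in the DMSO and MB-3 libraries, 1 point per library, with lines joining libraries of the same replicate letter. Serpinh1 is lower in MB-3 on all 3 lines and Hspb1 on 2 of 3, while the lines of the abundant members are nearly flat.

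None of the 10 members was differentially expressed between MB-3 and DMSO when treatment was the only term (edgeR quasi-likelihood test, Benjamini-Hochberg adjusted p over 20027 genes, threshold 0.05). In that fit 0.205% of all tested genes passed, or 41 genes. Of the 10 members, 2 had an unadjusted p under 0.05, Hspb1 and Serpinh1, beside 10.9% of all tested genes, and DESeq2 and limma-voom also called 0. The same 2 were lower, and 0 members were higher, once the replicate letter was added as a block, a fit in which 7.12% of all tested genes passed, 3.9% as lower and 3.22% as higher. The letters are used as a block because same-letter libraries deviated together from their group means, although the labels do not say what a letter stands for. Fitted log2 fold changes were below 0 for 6 members and above 0 for 4, with a median of -0.09 beside -0.00 for all tested genes. The DMSO and MB-3 values did not overlap for 2 members, Dnajb1 and Hspd1, against 15.6% of all tested genes. MB-3 was below DMSO in all 3 letters for 3 members (Hspa1a, Dnajb1 and Serpinh1) and above it for 2 (Hspa8 and Hspd1), against 20.3% and 20.2% of all tested genes.

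**Figure D2:**
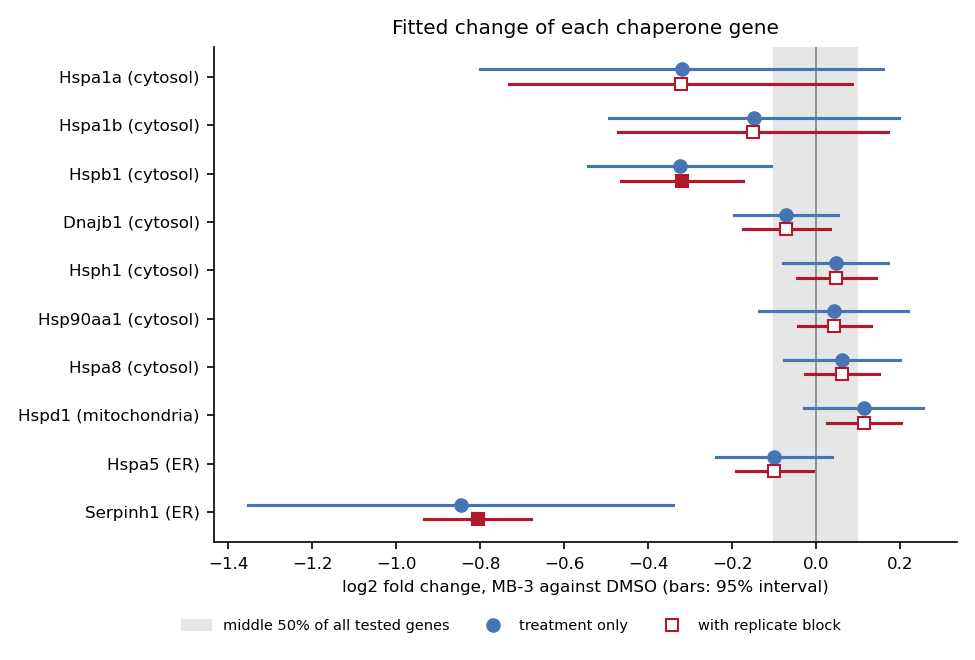
Fitted log2 fold change of MB-3 against DMSO for each member (horizontal axis), with its 95% interval, in the fit with treatment only (circles) and with the replicate block (squares, filled where the adjusted p was under 0.05). The grey band spans the middle 50% of all tested genes, and Serpinh1 and Hspb1 have the filled squares.

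The stress-induced HSP70 genes were scarcely expressed. Hspa1a (chr17:34969190-34972156) stood at 1.93, 1.26 and 1.64 CPM in DMSO A, B and C and at 1.19, 1.09 and 1.59 CPM in MB-3 A, B and C, from 48 to 93 reads per library. The groups overlapped, although MB-3 was lower in each letter. The log2 fold change was -0.32 ± 0.22 (SE, n = 3 per group, adjusted p = 0.634). Hspa1b (chr17:34956436-34959238) stood at 2.70, 2.47 and 2.22 CPM in DMSO and at 2.09, 2.07 and 2.52 CPM in MB-3. Its groups overlapped too, with MB-3 C above DMSO B, and the log2 fold change was -0.15 ± 0.16 (adjusted p = 0.779). The 95% interval ran from 0.574 to 1.12 of the DMSO level for Hspa1a and from 0.710 to 1.15 for Hspa1b. Differences within these bounds are not excluded. Because 60.3% of the 50-base windows of the Hspa1a transcript and 62.3% of those of Hspa1b also occur elsewhere in the genome, the split of reads between the pair is uncertain. Hspa1l, the testis HSP70 of the same locus, shares 232 such windows with Hspa1a and 187 with Hspa1b, and was not summed with them. The sum of Hspa1a and Hspa1b was 4.63, 3.73 and 3.86 CPM in DMSO and 3.28, 3.17 and 4.10 CPM in MB-3, again with overlap. Hspa1a also overlaps Gm20481 on the opposite strand, and whether the counting used strand is not given in the sources used here.

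Hspb1 (chr5:135887919-135889563), an ATP-independent chaperone that holds unfolding proteins and binds actin and intermediate filaments, stood at 31.8, 35.2 and 26.0 CPM in DMSO and at 22.5, 25.3 and 26.6 CPM in MB-3. It was lower with MB-3 in A and B, whereas the values of C were nearly equal, so the groups overlapped. The log2 fold change was -0.33 ± 0.10 (SE), with an adjusted p of 0.250 with treatment only and, at -0.32 ± 0.07, of 0.00392 with the block (edgeR). The blocked call did not hold in DESeq2 with the block (-0.32 ± 0.18, adjusted p = 0.482), where the SE was larger than in edgeR. Nor did it hold in edgeR without letter A (-0.23, adjusted p = 0.0676) or without letter B (-0.24, adjusted p = 0.136) in both groups. Without letter C it was -0.49, with an adjusted p of 2.55e-09, smaller than with all letters although from fewer libraries. A processed copy, Hsp25-ps1, took more reads than the gene itself. It stood at 42.04, 50.16 and 36.71 CPM in DMSO and at 31.63, 36.18 and 38.41 CPM in MB-3, with the same order of libraries in each group as the gene. Of the 50-base windows of Hspb1, 57.7% occur at more than 1 place, and the sum of both rows gave a log2 fold change of -0.30 (adjusted p = 0.281, and 0.00384 with the block).

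The remaining inducible members had fitted values near 0. Dnajb1 (chr8:83608193-83612653), which delivers clients to HSP70 and stimulates its ATPase, stood at 52.4, 55.5 and 52.1 CPM in DMSO and at 51.5, 50.3 and 50.5 CPM in MB-3. Every MB-3 value was below every DMSO value, but the difference was small, giving a log2 fold change of -0.07 ± 0.06 (adjusted p = 0.684). Hsph1 (chr5:149614287-149636376) stood at 169.8, 170.9 and 153.4 CPM in DMSO and at 169.6, 167.3 and 173.5 CPM in MB-3. Its values overlapped, DMSO C being the lowest, and the log2 fold change was 0.05 ± 0.06 (adjusted p = 0.815), a direction that turned to -0.00 without DMSO C. Hsp90aa1 (chr12:110690605-110702728), the inducible form of the chaperone of kinases and steroid receptors, stood at 7189, 7403 and 6303 CPM in DMSO and at 7134, 7606 and 6759 CPM in MB-3. It was the most abundant member in every library, its groups overlapped, and the log2 fold change was 0.04 ± 0.08 (adjusted p = 0.894), which turned to -0.03 without DMSO C and to -0.01 without MB-3 B.

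Among the constitutive members, Hspa8 and Hspd1 were slightly higher with MB-3 in each letter and Hspa5 was lower in 2 of 3. Hspa8 (chr9:40800984-40810087) stood at 154.9, 175.5 and 163.0 CPM in DMSO and at 161.1, 180.2 and 173.5 CPM in MB-3, with overlap and a log2 fold change of 0.06 ± 0.06 (adjusted p = 0.770). Hspd1 (chr1:55077835-55088243), which folds proteins inside the mitochondrial matrix, stood at 1028, 1048 and 936 CPM in DMSO and at 1050, 1140 and 1066 CPM in MB-3. The lowest MB-3 value lay just above the highest DMSO value, and the log2 fold change was 0.11 ± 0.07 (adjusted p = 0.565, and 0.115 with the block). Hspd1 overlaps Hspe1 on the opposite strand. Hspe1 itself stood at 101, 121 and 101 CPM in DMSO and at 106, 108 and 104 CPM in MB-3, giving a log2 fold change of -0.02 ± 0.07 (adjusted p = 0.933). Hspa5 (chr2:34771970-34777547), the ER HSP70 that also restrains the sensors of the unfolded protein response, stood at 337.8, 359.7 and 315.7 CPM in DMSO and at 295.8, 325.5 and 323.8 CPM in MB-3. These values overlapped and gave a log2 fold change of -0.10 ± 0.06 (adjusted p = 0.602, 0.202 with the block, and 0.0160 with the block once letter C was left out).

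For the 6 members other than Hspa1a, Hspa1b, Hspb1 and Serpinh1, the 95% intervals of the fitted log2 fold changes in the fit with treatment only lay between -0.24 and 0.25. In percent of the DMSO level this is from -15.3% to 19.3%.

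Serpinh1 (chr7:99345376-99353239), which binds procollagen in the ER, had the largest fitted change among the members. It stood at 48.9, 33.0 and 75.8 CPM in DMSO and at 28.1, 22.2 and 37.3 CPM in MB-3. MB-3 was lower in each of the 3 letters, by log2 ratios of -0.80, -0.57 and -1.02, whereas the groups overlapped because DMSO B lay below MB-3 C. With treatment only, the log2 fold change was -0.85 ± 0.23 (SE), with a 95% interval from -1.35 to -0.34, and the adjusted p was 0.206 (edgeR). With the replicate block Serpinh1 fell by 0.81 ± 0.06 on the log2 scale, to 0.572 of the DMSO level, with an adjusted p of 6.76e-11. That SE draws on a spread pooled across genes and is small beside the range of the 3 letter ratios. Serpinh1 passed the threshold in all 6 blocked fits, including DESeq2 and each fit without 1 letter, with values from -0.91 to -0.69. These 6 are not independent, since summing copies leaves the Serpinh1 row as it is. Without letter A the adjusted p in edgeR was 2.09e-24, smaller from fewer libraries, so the size of these p-values is no measure of strength. Without the block, the call was made when DMSO B was left out (-1.09, adjusted p = 0.00207) and when no filter on low counts was applied (adjusted p = 0.0215), and not in the other 11 settings. Without DMSO C the log2 fold change was -0.49 (adjusted p = 0.598). None of the 50-base windows of the Serpinh1 transcript occurs at a second place in the genome.

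Serpinh1 did not vary alone. Its level over the 6 libraries was most like that of Igfbp3, an IGF-binding protein (Pearson r = 1.00), Glipr2 (0.997) and Agpat3 (0.997). The search covered 11942 genes with a mean of at least 5 CPM and left out the members and all genes of the lists. Keratins, collagens and other chaperones of the lists were thus not ranked. The 6 points share the library, its composition and the treatment, and no test was made of these values. Igfbp3 stood at 61.8, 36.0 and 105.1 CPM in DMSO and at 29.0, 22.2 and 43.1 CPM in MB-3, so that in both genes C was highest and B lowest in each group. For the mean of the 6 inducible members the most similar of the genes searched were Degs1 (r = 0.990), Hist1h2ak (0.979) and Mical1 (0.976), none of which passed the threshold in either fit.

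Krt8, Krt18 and Krt19, keratin genes that mark epithelial cells, had the same order of libraries as Serpinh1 within each group. Krt8 stood at 62.7, 35.4 and 122 CPM in DMSO and at 27.7, 17.2 and 49.6 CPM in MB-3, and was lower with the block (log2 fold change -1.18, adjusted p = 1.1e-15). Of the 6 trophoblast and epithelial markers, Krt8, Krt18 and Krt19 were lower and Tfap2c was higher with the block, beside 3.9% lower and 3.22% higher among all tested genes. The summed level of the list was 229, 152 and 348 CPM in DMSO and 146, 122 and 198 CPM in MB-3. Tfap2c was its most abundant gene, while Cdx2 and Gata3, which define trophoblast, stayed at or below 2.73 and 1.05 CPM. Of the 7 extraembryonic endoderm markers, Sparc alone was lower with the block (log2 fold change -0.46), and the sum was 127, 106 and 161 CPM in DMSO and 101, 99.5 and 113 CPM in MB-3. Gata4 and Gata6, which define that lineage, did not exceed 1.02 and 0.54 CPM, and Sox17 and Foxa2 were too low to be tested. All 5 tested genes of that list had values below 0, with a median of -0.24. The 10 fibroblast and mesenchymal markers summed to 13.3, 11.0 and 13.5 CPM in DMSO and to 10.4, 11.1 and 10.2 CPM in MB-3, with Thy1 the highest. Of the 7 tested, 0 passed in either fit, 7 had values below 0, and the median was -0.19. The part of these cell types in the level of Serpinh1 was not tested, and in bulk RNA fewer cells of a type and less RNA per cell cannot be told apart.

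**Figure D3:**
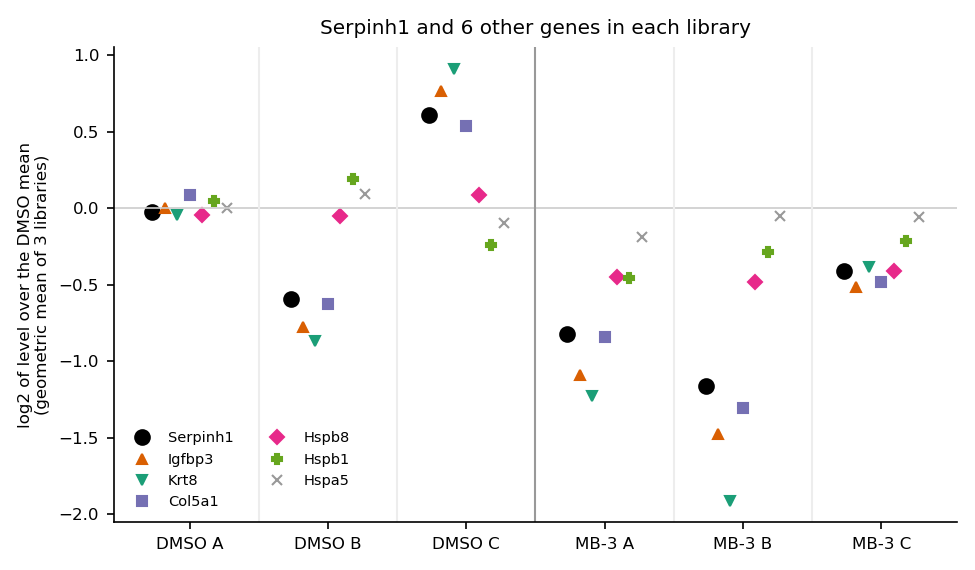
Level of Serpinh1 and of 6 other genes in each library, as log2 over the geometric mean of the 3 DMSO libraries (vertical axis), 1 symbol per gene and library. Serpinh1, Igfbp3, Krt8 and Col5a1 are highest in C and lowest in B within each treatment, while Hspb8 is nearly level within each treatment.

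Several collagen genes, whose products Serpinh1 binds, were lower with the block. Of 14 collagen and collagen-folding genes, 6 were lower and 0 were higher with the block, beside 3.9% and 3.22% of all tested genes, and 0 passed with treatment only. The median log2 fold change was -0.17, with 13 of 14 below 0, as were 10073 of all 20027 tested genes. Col5a1 stood at 12.2, 7.44 and 16.6 CPM in DMSO and at 6.39, 4.65 and 8.21 CPM in MB-3, and fell by 0.89 on the log2 scale with the block (adjusted p = 2.1e-08). The fibrillar collagen genes Col1a1 and Col1a2 were at most 1.24 and 2.20 CPM and had blocked log2 fold changes of -1.33 and -1.28. The basement membrane collagens Col4a1 (-0.46) and Col4a2 (-0.55) overlap each other on opposite strands, so that their reads may not be separate. Fkbp10, an ER prolyl isomerase that acts on procollagen, had -0.26, and P4ha1, a prolyl hydroxylase subunit, had the only value above 0, at 0.06.

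Of the other small heat shock proteins, Hspb8 and Cryab, 2 of 5 tested, were lower with the block, beside 3.9% of all tested genes. Hspb8, a partner of Bag3 in selective autophagy, was the one gene of all the lists that passed the threshold with treatment only. It stood at 34.8, 34.6 and 38.1 CPM in DMSO and at 26.2, 25.6 and 26.9 CPM in MB-3. The groups were far apart relative to the spread within them, and the log2 fold change was -0.45 ± 0.07 (adjusted p = 0.0243, and 1.22e-06 with the block). With 1 library left out and no block, the adjusted p passed the threshold in 2 of 6 fits (0.00203 without DMSO B, 0.0355 without MB-3 C) and was 0.0832 without DMSO A, 0.0974 without DMSO C, 0.182 without MB-3 A and 0.165 without MB-3 B. The log2 fold change over these 6 fits stayed between -0.47 and -0.40. None of its 50-base windows occurs elsewhere in the genome. Cryab, the αB-crystallin gene, stood at 3.45, 2.03 and 5.41 CPM in DMSO and at 1.29, 0.843 and 2.54 CPM in MB-3, with a blocked log2 fold change of -1.24 (adjusted p = 1.4e-06). It overlaps Hspb2 on the opposite strand, which had -0.62 (adjusted p = 0.098 with the block). Hspb6 (-0.20) and Hspb11 (0.23) did not pass, and Hspb3, Hspb7, Hspb9 and Cryaa were too low to be tested. The median of the 5 tested genes was -0.45.

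The factors that drive the heat shock response did not pass the threshold. Hsf1 stood at 33.7, 37.1 and 35.3 CPM in DMSO and at 33.8, 35.4 and 36.5 CPM in MB-3, a log2 fold change of -0.01 ± 0.06 (adjusted p = 0.980). Hsf2, its paralog, had 0.07 ± 0.06 (adjusted p = 0.731). Of the 7 genes of this list, 0 passed in either fit, and Hsbp1, a negative regulator of Hsf1, had -0.01. The activity of Hsf1 is set largely at the level of the protein, which these libraries do not measure.

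Hsp90ab1, the constitutive cytosolic HSP90, stood at 6330, 6867 and 6009 CPM in DMSO and at 6314, 6832 and 6614 CPM in MB-3, with a log2 fold change of 0.04 ± 0.08. Of the 11 other HSP90 chaperones and cochaperones, 0 passed in either fit. The lowest values among them were those of Ahsa2 (-0.14) and Chordc1 (-0.09), and the highest those of Ppid (0.09) and Fkbp5 (0.08). Of the 8 other HSP70 and HSP110 genes and the 8 subunits of the cytosolic chaperonin, which folds actin and tubulin, 0 passed in either fit, with median log2 fold changes of 0.00 and -0.01. Among the HSP70 and HSP110 genes with a mean of at least 5 CPM, Hspa13 (-0.16) and Hspa4l (-0.06) had the lowest values and Hspa4 (0.03) and Hspa14 (0.02) the highest, while the chaperonin ran from Cct5 (-0.05) and Cct4 (-0.04) to Tcp1 (0.03) and Cct6a (0.04). Of 17 J proteins and HSP70 cochaperones, 1 passed with the block, a share near the 7.12% of all tested genes. It was Bag2, an inhibitor of the ubiquitin ligase Stub1, with values of 4.47, 4.69 and 6.63 CPM in DMSO and 3.38, 3.30 and 3.96 CPM in MB-3 and a log2 fold change of -0.56 (adjusted p = 0.0023 with the block). Stub1 itself had 0.14, Dnajb4 0.17, Dnajb2 -0.13 and Hspbp1 -0.12, and the median of the list was -0.02.

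In the mitochondrion, 0 of 12 chaperones and proteases passed in either fit and the median was -0.02. Hspa9, the mitochondrial HSP70, stood at 938, 885 and 929 CPM in DMSO and at 896, 901 and 898 CPM in MB-3, with -0.03 ± 0.06. The nucleotide exchange factor Grpel1 had -0.09, Htra2 -0.07, Clpx 0.06 and Afg3l2 0.07.

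In the ER, 3 of 25 chaperone and unfolded protein response genes were lower with the block and 0 were higher, beside 3.9% and 3.22% of all tested genes, and 0 passed with treatment only. The 3 were Herpud1, which acts in ER-associated degradation (-0.45, adjusted p = 3.1e-05), the stress transcription factor Ddit3, known as CHOP (-0.52, adjusted p = 9.3e-05) and its target Trib3 (-0.47, adjusted p = 1.3e-05). Herpud1 stood at 20.2, 20.1 and 24.8 CPM in DMSO and at 16.7, 14.1 and 16.8 CPM in MB-3, without overlap of the groups. On the opposite strand Ddit3 overlaps Mars and Gm4189, and Herpud1 overlaps Gm15890, so their reads may not be separate. The chaperones of the list stayed closer to 0, and Hsp90b1, the ER HSP90, stood at 502, 516 and 489 CPM in DMSO and at 464, 505 and 475 CPM in MB-3 (-0.06 ± 0.06). Hsp90b1 carried the same response element as Hspa5, at -212 and -107 from its start. Of the 25 genes 19 had values below 0, beside 10073 of all 20027, with a median of -0.06, and Ern1 (0.10) and Sil1 (0.03) were the highest.

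**Figure D4:**
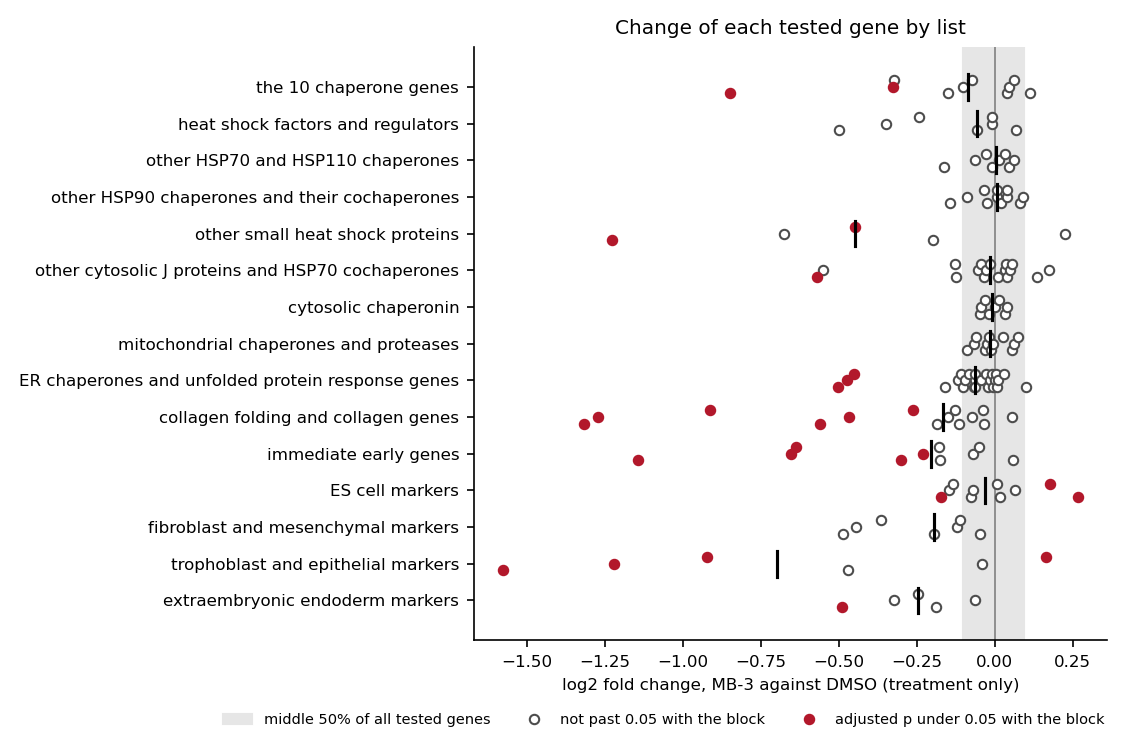
Log2 fold change of MB-3 against DMSO in the fit with treatment only (horizontal axis) for each tested gene of each list, 1 point per gene, filled where the adjusted p was under 0.05 with the replicate block, with the list median as a vertical line and the middle 50% of all tested genes in grey. Most points of the HSP70, HSP90, chaperonin and mitochondrial lists lie near 0, and none of those 4 lists has a filled point.

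The grouping by regulation and by compartment was compared in each library as the mean of log2(CPM + 0.1) over the genes of a class. The inducible class was at 5.57, 5.50 and 5.38 in DMSO A, B and C and at 5.31, 5.33 and 5.45 in MB-3, and the constitutive class at 7.82, 7.76 and 7.94 in DMSO and at 7.60, 7.62 and 7.77 in MB-3. Within A, B and C the inducible class shifted by -0.26, -0.17 and 0.07. The constitutive class shifted by -0.23, -0.14 and -0.18. The difference between the classes (inducible minus constitutive) was -2.35 ± 0.18 (SD, n = 3) in DMSO and -2.30 ± 0.02 in MB-3, a shift of 0.06, which was smaller than the spread among DMSO libraries. Within the letters A, B and C the shifts were -0.03, -0.03 and 0.24, so that 2 of 3 went against the sign of the mean. Without Serpinh1 the shift was -0.15, since the constitutive class then went from 8.58 to 8.60. The difference then went from -3.09 ± 0.09 (SD) to -3.24 ± 0.09, a shift larger than the spread in either group. The sign of this comparison thus turned without 1 gene. It also turned, to -0.02, when Hsp90aa1 was counted as constitutive, and to -0.04 when DMSO C was left out. It was 0.11 without DMSO A or without DMSO B, and also 0.11 without the scarcely expressed Hspa1a and Hspa1b. Counting Hspd1 or Serpinh1 as inducible was not tried. Cytosolic members went from 5.75 ± 0.08 to 5.66 ± 0.07, the ER members from 7.02 ± 0.25 to 6.57 ± 0.19, and mitochondrial Hspd1 from 9.97 ± 0.09 to 10.08 ± 0.06. Within A, B and C the ER members shifted by -0.49, -0.36 and -0.49. Cytosolic members shifted by -0.21, -0.14 and 0.07, and Hspd1 by 0.03, 0.12 and 0.19. Without Serpinh1 the ER value, then Hspa5 alone, shifted by -0.10, as against -0.45 with it. The difference of cytosol minus ER and mitochondria shifted by 0.16 with Serpinh1, from -2.25 ± 0.20 (SD) to -2.08 ± 0.06. Without Serpinh1 the difference shifted by -0.10, from -3.43 ± 0.05 to -3.53 ± 0.08. With Serpinh1 the shifts within the letters were 0.11, 0.05 and 0.33. With Serpinh1 kept, the mean shift was 0.05 without DMSO C, 0.25 without DMSO B and 0.21 without Hspa1a and Hspa1b. No test was made of these class means, and 3 libraries against 3 cannot give an exact permutation p below 0.1.

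The reads of several members were shared with copies in the genome, which bears on what their rows measured. The row of Hspa8 held 6.94% of the summed reads of 8 rows, its own and those of 7 annotated pseudogenes, whereas the pseudogene rows Gm6210 (1125 to 1288 CPM over the 6 libraries) and Gm8355 (875 to 1030 CPM) held most of the rest. Of the 50-base windows of Hspa8, 74.8% occur at more than 1 place, as do 68.4% of those of Hsp90aa1 and 46.1% of those of Hspd1. The level of Hspa8 in its own row, and its place in the order above, may thus be far below that of its transcript. Over all 8 rows the sum was 2381, 2530 and 2244 CPM in DMSO and 2363, 2595 and 2393 CPM in MB-3, and its log2 fold change was 0.04. Hsp90aa1 and Hspd1 held 86.7% and 84.4% of their sums, and the copy Hspd1-ps3 had a log2 fold change of 0.13 beside 0.11 for Hspd1. The sums leave out the pseudogenes Gm7232 and Gm37348 for Hspa8 and Gm47750 for Hspd1. These also share at least 100 windows of 50 bases with the gene, so the shares are of the summed rows only. Matching places annotated other than as pseudogenes were not summed either. Among them is Gm9817, annotated as protein coding, which shares 339 such windows with Hspb1. Dnajb1 shared 0.577% of its windows, and Hsph1, Hspa5 and Serpinh1 shared none.

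**Figure D5:**
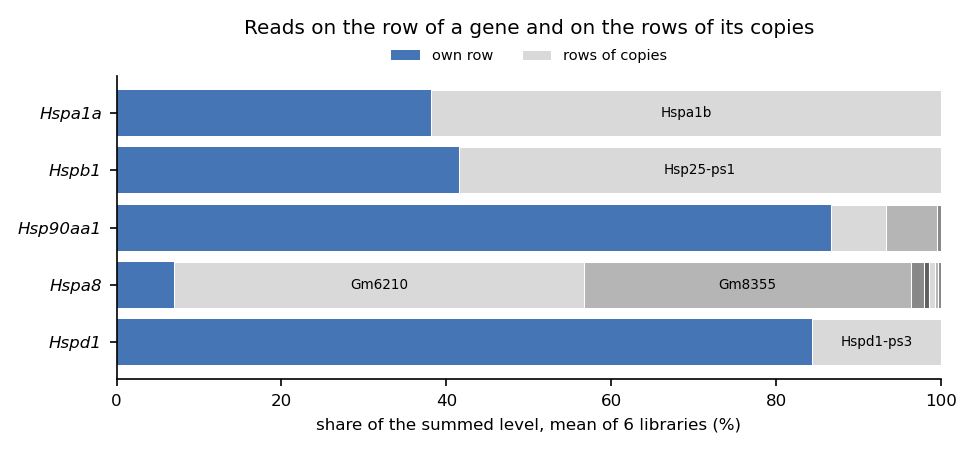
Share of the summed level (percent, mean of the 6 libraries) on the row of the gene itself and on the rows of its genomic copies, for the members whose annotated pseudogenes share at least 100 windows of 50 bases with them and for Hspa1a with its near-identical copy. Hspa8 holds 6.94% and Hspb1 41.6%, while Hsp90aa1 and Hspd1 hold 86.7% and 84.4%, and for Hspa1a the copy drawn is Hspa1b.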

How the data were processed

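The deposited values are raw read counts for each Ensembl gene, made by the authors with GenomicAlignments over exonic regions after trimming the single-end HiSeq4000 reads and placing them on mm10 by Bowtie. Versions, the annotation, read length and strand use are not given in the sources used here. Of 30677 identifiers, 30540 matched GENCODE M21 (GRCm38), whose coordinates and exon lengths are used. The table had 0 rows without a gene. The H3K9ac peak lists, on mm9, were not used.

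Counts were tested with edgeR 4.0.16 in R 4.3.3 (filterByExpr, TMM, glmQLFit, glmQLFTest), with Benjamini-Hochberg adjustment over 20027 genes and treatment as the only term. CPM is the count per 1000000 of the TMM-scaled library size, and 1 CPM was 42.9 to 50.2 reads. Libraries are lettered in the labels, which do not say whether a letter marks a culture or a day, so the p-values measure the spread between these samples, which may be technical. The fits pool the estimate of that spread across genes, so the SE and p of a gene do not rest on its own values alone. Few libraries are left to estimate it once the block is fitted. Fewer still are left without a letter, where some p-values came out smaller than with all letters. Over 20027 genes, the deviations of same-letter libraries from their group means correlated at 0.115 (A), 0.287 (B) and 0.232 (C), and those of other pairs at -0.23 to -0.02. All 3 same-letter values exceeded 0.1, so the fit with the letter as a block is given where it changed a call.

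The members and lists were chosen with earlier results of these data known. Named were all members, 6 partners (Hsf1, Hsf2, Hsp90ab1, Hspe1, Hspa9 and Hsp90b1), list genes past the threshold in either fit, the 2 largest rises and falls per list at a mean of at least 5 CPM, and the 3 genes outside the lists most like Serpinh1 and the inducible mean. Exceptions are markers of cell types, the genes too low to be tested, Hspb11, Hspa1l, genes named for an overlap on the opposite strand such as Hspb2, and the copies. The copies were found by exact 50-base matches to GRCm38 and chosen after values were seen. Promoters are from RefSeq (GRCm38.p6), where 8 of the 10 members matched. Alternatives were other scalings, no low-count filter, DESeq2 1.42.0, limma-voom (limma 3.58.1), the block, omitted libraries and summed copies. The edgeR step was tested on simulated counts.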

Additional observations from a re-analysis of the deposited data

How the results depend on the processing

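With treatment only, the number of genes called over the whole table was 39 with RLE size factors and 41 with copies summed, but 25 with upper quartile scaling, 24 with library totals, 194 with no filter on low counts, 183 with DESeq2 and 18 with limma-voom, and with 1 library left out it ran from 0 (without MB-3 A or B) to 520 (without DMSO B). The replicate block gave 1425 calls, 591 in DESeq2, 1421 with copies summed, and 939, 912 and 1037 without letter A, B or C in both groups. It changed the call of Hspb1 (-0.32, -0.29 with copies summed, -0.49 without letter C, but no call at -0.32 in DESeq2, -0.23 without letter A and -0.24 without letter B) and of Serpinh1 (-0.81 in edgeR and with copies summed, -0.80 in DESeq2, and -0.81, -0.91 and -0.69 without letter A, B or C) and, with all letters, of no other member, while Hspa5 (-0.17) passed only without letter C. The unblocked fit without a low-count filter also called Serpinh1 (-0.85). With 1 library left out and no block, the log2 fold changes ran from -0.44 to -0.23 for Hspb1, from -1.09 to -0.49 for Serpinh1 and from -0.15 to -0.05 for Hspa5. They ran from -0.49 to -0.17 for Hspa1a, from -0.24 to -0.08 for Hspa1b and from -0.09 to -0.04 for Dnajb1. For Hspa8 they ran from 0.02 to 0.11 and for Hspd1 from 0.06 to 0.14. The direction of 14 named genes turned in at least 1 such omission or in a blocked fit without 1 letter. Their ranges, with the turned blocked values in parentheses, were Hsph1 -0.0024 to 0.074 (-0.017), Hsp90aa1 -0.026 to 0.087, Cct6a 0.00049 to 0.081 (-0.0018), Dab2 -0.32 to 0.015, Hsbp1 -0.081 to 0.045 (0.011 and 0.029), Hsf1 -0.041 to 0.029 (0.024), Hsp90ab1 -0.0026 to 0.094 (-0.0056), Hspa14 -0.019 to 0.047 (-0.014), Hspa4 -0.00041 to 0.061 (-0.0085), Hspe1 -0.068 to 0.071 (0.057), Ier2 0.00098 to 0.11 (-0.044), P4ha1 -0.011 to 0.097 (-0.036), Sil1 -0.032 to 0.10 (-0.095) and Tcp1 0.0078 to 0.065 (-0.0054). Hsp90aa1 was also at -0.0054 without MB-3 B. The causes were not tested. The alternatives with copies summed, DESeq2 with the block and each letter left out were chosen after seeing the data. Hspa1a and Hspa1b rest on 48 to 130 reads per library. How far depth or the spread between libraries set the width of their intervals was not tested.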

Other observations

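Immediate early genes respond within minutes to stress and to handling of cells. Their summed level was 301, 299 and 353 CPM in DMSO A, B and C and 311, 278 and 298 CPM in MB-3 A, B and C, higher with MB-3 in A and lower in B and C. Of the 10 tested, 5 were lower and 0 higher with the replicate block, beside 3.9% and 3.22% of all tested genes, 0 passed with treatment only, and the median log2 fold change was -0.20. Jun stood at 6.81, 5.64 and 9.96 CPM in DMSO A, B and C and at 4.84, 3.83 and 5.60 CPM in MB-3, so that MB-3 was below DMSO throughout, and its blocked log2 fold change was -0.64 (adjusted p = 8.7e-05, edgeR). It overlaps Junos on the opposite strand. Atf3, a stress-induced repressor, stood at 3.68, 1.79 and 6.46 CPM in DMSO and at 1.79, 1.12 and 2.50 CPM in MB-3 (-1.09). Its order of libraries within each treatment was that of Serpinh1, with C highest and B lowest. Fos (-0.61), Egr1 (-0.32) and Btg2 (-0.21) were also lower, and Ier2 had the only value above 0, at 0.06.

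Among 10 ES cell markers, Utf1 (0.28) and Sall4 (0.19) were higher and Tfcp2l1 (-0.17) was lower with the block, beside 3.22% higher and 3.9% lower among all tested genes, and 0 passed with treatment only. Klf4 had -0.15 with treatment only. Lama1, listed with the endoderm markers, stood at 34.3 to 40.8 CPM in every library, and Dab2 had -0.19. Dppa5a was the most abundant ES cell marker, at 1298 to 1577 CPM in DMSO and 1260 to 1414 CPM in MB-3.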
